A study of Bos taurus with 54 samples.

Results

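CCR7, S1PR1, CXCR4, KLF2, IL7R, LEF1, TCF7, BACH2 and SATB1 are 9 genes of lymphocyte homing and of the naive lymphocyte state, chosen by symbol from the 32637 genes counted in each library. Each symbol had 1 row, and all 9 genes passed the low-count filter in both kits. The blood came from 15 Holstein male calves kept in climate control rooms during a heat stress trial. Most animals were sampled at both times, and the fold changes below compare the groups, with changes within animals given beside them. The thermoneutral control sample was drawn in the morning (6 AM in the labels), before heat, and the heat stress sample in the evening (6 PM), directly after 12 h of heat. Heat and time of day changed together in every animal, so that they cannot be told apart here. The calves' age is not given in the sources used here, and the labels name no other treatment, allele or agent. Red blood cells were lysed before RNA extraction, so the RNA is that of mixed white blood cells with any red cells and platelets left. In bulk RNA of this kind, fewer cells of a type and less RNA per cell cannot be told apart. The RNA was sequenced from the 3′ end of the transcripts in 27 libraries per kit from 29 RNA samples, using SMART-Seq v4 3′ DE of Takara and QuantSeq 3′ of Lexogen.

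Naive lymphocytes circulate between blood, lymph nodes and lymph. The chemokine receptor CCR7 guides them into lymph nodes, CXCR4 holds cells in tissues that make its ligand CXCL12, such as bone marrow, and S1PR1 senses the sphingosine 1-phosphate (S1P) of blood and lymph and lets cells leave lymphoid organs. KLF2 is a transcription factor that activates S1PR1 and other homing genes, IL7R carries the survival signal of interleukin 7, and LEF1, TCF7, BACH2 and SATB1 are nuclear factors that hold T cells in a naive or stem-like state. Several of these genes are also used by other white blood cells, CXCR4 among them by neutrophils and B cells.

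The comparison of the times used 13 control and 13 heat stress libraries per kit, with 12 animals sampled at both times in each kit. Animal 20 has only 1 RNA sample. Its label gives the evening, but the titles give 14 morning and 15 evening RNA samples where the protocol gives 15 and 14. The study's own list of samples has the only calf with a single time as a thermoneutral control, against this label, and the library was left out in each kit. Sample numbers fall into 2 runs of 8 and 7 animals with a gap between them, and run was examined as a possible batch. Reads counted on genes ranged from 5140595 to 20699030 in Takara libraries and from 4516761 to 58521751 in Lexogen libraries. The highest of these, the heat stress library of animal 15, stood apart from the second highest Lexogen library, with 15607291. Without animal 15 the Lexogen test still called CXCR4 alone of the 9 genes (log2 fold change 1.43 against 1.40 with it). No pair of libraries held identical counts. Levels below are CPM, reads per 1e+06 effective reads on genes, on a scale set within each kit, and fold changes are heat stress against control. They come from the quasi-likelihood test of edgeR, adjusted by Benjamini-Hochberg over all genes tested in the kit, with a call at an adjusted p under 0.05.

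In Takara libraries, CXCR4 and S1PR1 rose and TCF7, LEF1 and SATB1 fell, while CCR7, KLF2, IL7R and BACH2 did not pass the test. The 2 genes that rose are receptors for signals that hold cells in tissues or draw them out, and the 3 that fell are nuclear factors of the naive state. Of all 12620 genes tested in Takara, 18.4% were called higher and 10.5% lower. The 2 of 9 higher are near the first share, and 3 of 9 lower is a small count, from which nothing particular to these genes is read. The median log2 fold change of the 9 genes was -0.38, and that of all genes tested was -0.05. In Lexogen libraries CXCR4 rose and the other 8 genes did not pass the test. There 5.09% of the 11108 genes tested were called higher and 0.459% lower, and the median log2 fold change was -0.18 for the 9 genes and -0.08 for all genes. If the library of animal 20 is counted as control instead of being left out, 0 of the 9 genes and 0 of all Takara genes were called by the same edgeR test, with 3804 genes at an unadjusted p under 0.05. If it is counted as heat stress, as labelled, 2 of the 9 genes were higher and 4 lower in Takara, with BACH2 called as well (adjusted p = 0.0458 by the edgeR test), and over all Takara genes 2528 were higher and 1672 lower.

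CXCR4 (NCBI gene 281736, chromosome 2, 61250149 to 61253862 of ARS-UCD2.0) is the receptor of CXCL12. In Takara control libraries it lay between 36.1 and 95.9 CPM with a median of 80.8, and in heat stress libraries between 53.4 and 633.2 CPM with a median of 181. Of the 13 heat stress values, 12 lay above every control value, and the exception was animal 3. This is a log2 fold change of 1.64 with a standard error of 0.29, or 3.13-fold (adjusted p = 0.000412 by edgeR's quasi-likelihood test). In Lexogen libraries the range was 24.2 to 126.2 CPM in control (median 49.3) and 33.5 to 338.8 CPM in heat stress (median 148.6), and 7 heat stress values lay above every control value. The groups overlapped more there than in Takara, and CXCR4 rose by a log2 value of 1.40 ± 0.27 (standard error), or 2.65-fold (adjusted p = 0.00186 by the same edgeR test). Within animals, CXCR4 was higher after heat in 11 of 12 pairs in Takara and in 11 of 12 in Lexogen. The ratio of heat stress to control ran from 0.61 (animal 3) to 10.6 (animal 18) in Takara and from 0.71 (animal 3) to 7.20 (animal 40) in Lexogen. Of the 10 animals paired in both kits, 9 were higher with both and animal 3 was lower with both, so that the kits gave the same direction for each of them. The call held with each animal left out in turn, with log2 fold changes from 1.40 to 1.75 in Takara and from 1.25 to 1.56 in Lexogen.

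**Figure D1:**
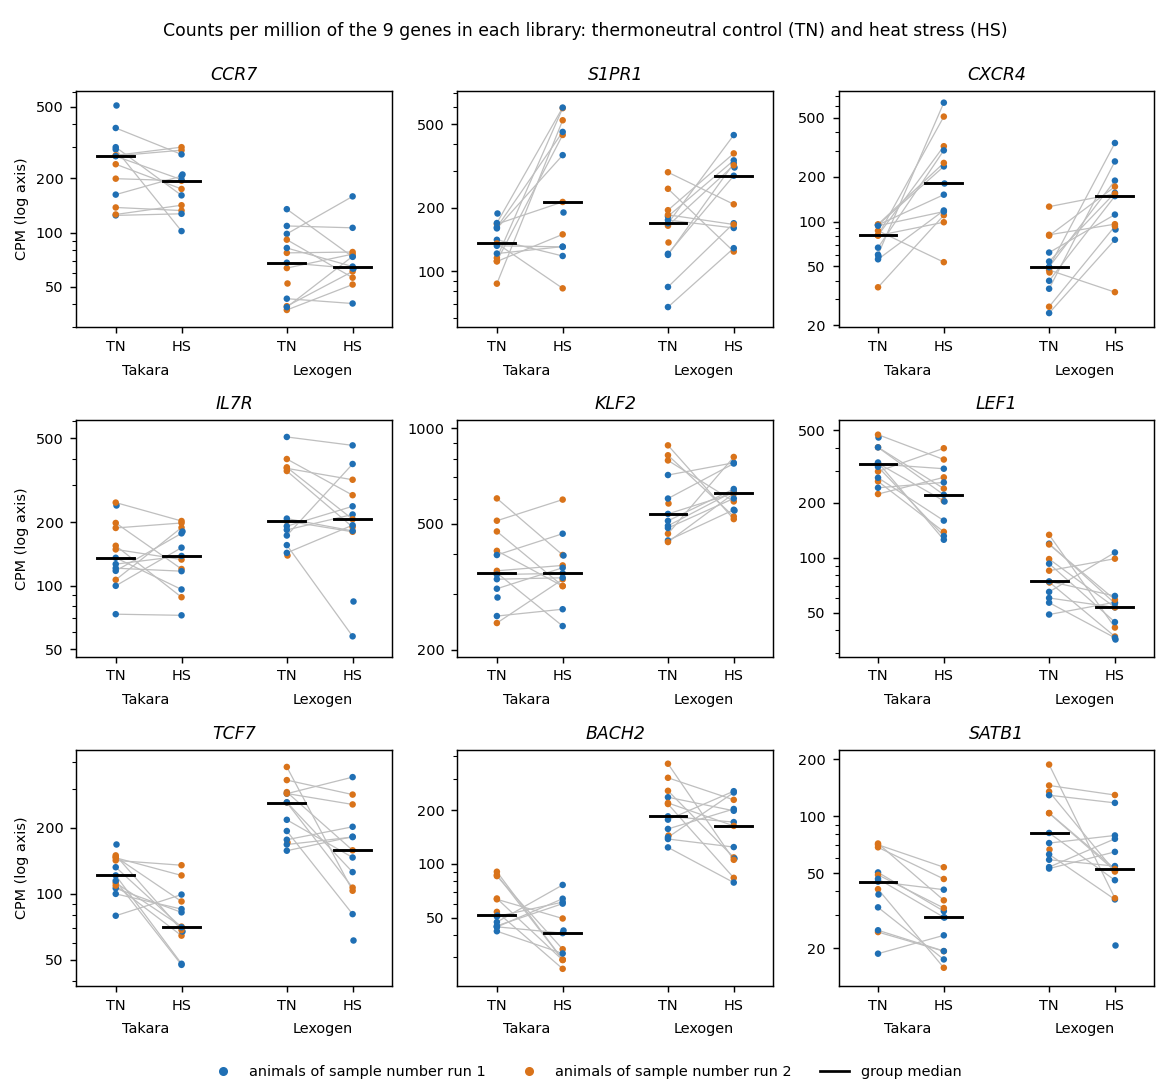
CPM of each gene in every library (log axis), with thermoneutral control (TN) and heat stress (HS) side by side for each kit, a grey line joining the samples of an animal, colours for the sample number runs and a black bar at the group median. In Takara, 12 of 13 heat stress values of CXCR4 lie above every control value, whereas the KLF2 and IL7R groups lie over each other.

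S1PR1 (NCBI gene 281135, chromosome 3, 42034669 to 42039324) is the egress receptor. Takara control libraries held 87.1 to 188.9 CPM (median 135.4), a narrow range, while heat stress libraries spread from 82.8 to 598.9 CPM (median 213.1). The heat stress group reached both below and above the control group, with 8 values above every control value and 1 below every control value. On average S1PR1 rose by 1.15 ± 0.27 (standard error) on the log2 scale (adjusted p = 0.00285 by edgeR's quasi-likelihood test). S1PR1 was higher in 9 of 12 pairs, with ratios from 0.61 in animal 14 to 5.98 in animal 36. In Lexogen libraries the values were 67.4 to 295 CPM in control and 123.8 to 443.2 CPM in heat stress, with means of 164.6 ± 61.9 and 256.8 ± 102.6 (SD, n = 13 each). The groups overlapped, 8 of 12 pairs were higher, and the log2 fold change of 0.64 (95% interval 0.20 to 1.09) had an adjusted p of 0.0847 by the edgeR test and so was not called. Without animal 14 or without animal 3, the Lexogen adjusted p was 0.0279 or 0.0339 by the same test.

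CCR7 (NCBI gene 510668, chromosome 19, 40775261 to 40786420), the receptor for lymph node entry, went from a Takara median of 265.5 CPM in control (124.7 to 509.2) to 194 CPM in heat stress (102 to 297.9). The ranges overlapped, with 1 heat stress value below and 2 control values above the other group, and 7 of 12 pairs were lower. The log2 fold change of -0.38 had a 95% interval from -0.81 to 0.04 (adjusted p = 0.159 by the edgeR test). In Lexogen the medians were 68.1 and 64.9 CPM, 6 of 12 pairs were lower, and the interval ran from -0.40 to 0.50. Of the 10 animals paired in both kits, 5 changed in opposite directions in the kits.

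KLF2 (NCBI gene 520939, chromosome 7, 6684756 to 6687147), the activator of S1PR1, had Takara medians of 349.5 CPM in control and 348.5 CPM in heat stress. Its log2 fold change was -0.04 (95% interval -0.33 to 0.25) in Takara and 0.08 (-0.20 to 0.36) in Lexogen, and both intervals held 0. It was higher in 8 of 12 Takara pairs and 9 of 12 Lexogen pairs. IL7R (NCBI gene 521554, chromosome 20, 38298529 to 38338605), the interleukin 7 receptor chain, had medians of 135.4 and 138.1 CPM in Takara and 202.2 and 206.2 CPM in Lexogen. Its intervals, -0.45 to 0.31 in Takara and -0.70 to 0.33 in Lexogen, also held 0. IL7R was lower in 7 of 12 Takara pairs and in 8 of 12 Lexogen pairs, from a ratio of 0.37 in animal 12 to 2.18 in animal 29 in Lexogen.

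TCF7 (NCBI gene 782690, chromosome 7, 45768900 to 45800947) encodes TCF1, a factor of naive and memory T cells. Takara control libraries held 79.5 to 169.6 CPM (median 121.4) and heat stress libraries 47.5 to 135.1 CPM (median 70.9). Of the heat stress values, 7 lay below every control value, and 11 of 12 pairs were lower, with animal 41 the exception at a ratio of 1.25. TCF7 fell to a fold of 0.65, or -0.63 ± 0.15 (standard error) on the log2 scale (adjusted p = 0.00279 by edgeR's quasi-likelihood test), and was called with each animal left out. In Lexogen the median was 260.8 CPM in control and 158 CPM in heat stress, with 8 of 12 pairs lower. A log2 fold change of -0.51 (95% interval -0.95 to -0.07) was not called there (adjusted p = 0.193 by the edgeR test). Among the 10 animals paired in both kits, TCF7 was lower with both in 8.

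LEF1 (NCBI gene 535399, chromosome 6, 17083384 to 17200676), a factor of the same family as TCF7, lay between 223.6 and 473.8 CPM in Takara control libraries (median 326.6) and between 125.5 and 399 CPM in heat stress libraries (median 221.5). Again 7 heat stress values lay below every control value, and 9 of 12 pairs were lower. LEF1 changed by -0.53 ± 0.17 (standard error) on the log2 scale (adjusted p = 0.0223 by edgeR's quasi-likelihood test). Without animal 36 or without animal 40 the adjusted p was 0.0504 or 0.0524 by the same test, and the call was lost. In Lexogen LEF1 had medians of 74.1 and 53.4 CPM and was lower in 9 of 12 pairs. Its log2 fold change there was -0.57 (95% interval -0.98 to -0.17, adjusted p = 0.0936 by the edgeR test), and without animal 18 or animal 3 the adjusted p was 0.0378 or 0.045 by the same test. The kits went opposite ways for LEF1 in 4 of the 10 animals paired in both.

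SATB1 (NCBI gene 516952, chromosome 1, 155431054 to 155531184), an organizer of chromatin in T cells, fell from a Takara median of 45.1 CPM (18.8 to 71.7) to 29.3 CPM (15.8 to 53.7). The groups overlapped, with 2 heat stress values below every control value, but 11 of 12 pairs were lower. Its log2 fold change was -0.56 ± 0.21 (standard error), with an adjusted p of 0.0497 by edgeR's quasi-likelihood test, just under the threshold. The call was lost without animal 7, 12, 14, 15, 16, 18, 19, 23, 29, 36 or 40, with adjusted p values up to 0.1 by the same test, and with counts of the sense strand alone (adjusted p = 0.0541). It was also lost with DESeq2 size factors (adjusted p = 0.06), without the low-count filter (0.0505), with DESeq2 on all expressed genes (0.0563), and under the T cell marker scale, the single runs and animal 20 as control given elsewhere in the text. The size of the change stayed between -0.60 and -0.51 with any animal left out. In Lexogen SATB1 went from a median of 81.5 to 52.7 CPM, 9 of 12 pairs were lower, and the log2 fold change was -0.62 (95% interval -1.12 to -0.12, adjusted p = 0.161 by the edgeR test). The positions of 2 uncharacterized genes overlap that of SATB1, and 1 such gene each overlaps LEF1 and BACH2, so that unstranded counts could not separate their reads in full. With sense strand counts the Takara log2 fold changes were -0.55, -0.53 and -0.48 for SATB1, LEF1 and BACH2.

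BACH2 (NCBI gene 538296, chromosome 9, 59951938 to 60347310), a repressor of effector genes in T and B cells, had Takara medians of 51.9 CPM in control (41.99 to 90.5) and 40.98 CPM in heat stress (25.9 to 76.3). Of the heat stress values, 7 lay below every control value, yet 4 of 12 pairs were higher. The log2 fold change of -0.43 (95% interval -0.79 to -0.06) was not called (adjusted p = 0.0743 by edgeR's quasi-likelihood test). It was called without animal 12, 18 or 41, at adjusted p values of 0.0474, 0.0297 and 0.0379 by the same test. In Lexogen the medians were 184.8 and 163.3 CPM, and the interval ran from -0.77 to 0.06.

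**Figure D2:**
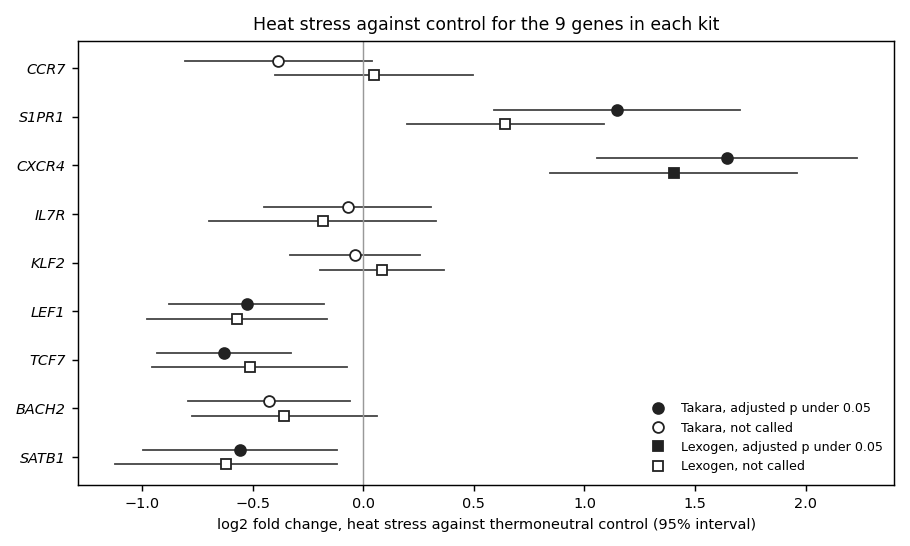
Log2 fold change of heat stress against control for each gene, with bars for the 95% interval, circles for Takara, squares for Lexogen and filled symbols for an adjusted p under 0.05. CXCR4 is filled in both kits, S1PR1, LEF1, TCF7 and SATB1 are filled in Takara, and the intervals of CCR7, IL7R and KLF2 cross 0 in both kits.

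BACH2 differed between the sample number runs. In Takara run 1, control libraries held 41.99 to 51.9 CPM (n = 7) and heat stress libraries 31.5 to 76.3 CPM (n = 7). In run 2, control libraries held 53.9 to 90.5 CPM (n = 6) and heat stress libraries 25.9 to 49.5 CPM (n = 6). Control values of run 2 thus lay above all control values of run 1, and in run 2 the times did not overlap. All 6 Takara pairs of run 2 were lower, with ratios from 0.32 to 0.78, and in run 1 they were mixed, 2 lower and 4 higher, from 0.75 to 1.61. The heat effect differed by -1.39 on the log2 scale, run 2 minus run 1 ( standard error 0.26, adjusted p = 0.00384 by edgeR's quasi-likelihood test of the run by time interaction). The log2 fold change was 0.20 within run 1 and -1.15 within run 2 (adjusted p = 0.428 and 0.0341 by the edgeR test within each run). BACH2 was the only 1 of the 9 genes called in this test, which called 2.58% of all Takara genes. The call held with each animal left out in turn (difference from -1.59 to -1.29) and with sense strand counts (-1.67).

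The Lexogen libraries were made from mostly the same RNA samples and are no independent set of animals. There BACH2 lay between 123.8 and 236.4 CPM in control and between 78.7 and 255.6 CPM in heat stress in run 1 (n = 7 and 8), and between 145.6 and 364.2 CPM and between 83.6 and 228.6 CPM in run 2 (n = 6 and 5). The pairs were lower in 5 of 5 animals of run 2, with ratios from 0.29 to 0.75, and in 4 of 7 animals of run 1. This split was not particular to BACH2 in Lexogen. SATB1 was also lower in 5 of 5 and 4 of 7 pairs, and IL7R and TCF7 were each lower in 5 of 5 and 3 of 7. For BACH2 the difference of the log2 fold changes was -0.94 (95% interval -1.74 to -0.13), with an adjusted p of 0.516 by the edgeR interaction test. That test called 0.018% of all Lexogen genes and 0 of the 9 genes. At an unadjusted p under 0.05 it held 883 genes. CXCR4 had a Lexogen difference of -1.23 (95% interval -2.30 to -0.16, adjusted p = 0.526 by the edgeR test), with a median pair ratio of 3.72 in run 1 and 1.22 in run 2. In Takara its difference was -0.19 (95% interval -1.38 to 1.01).

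Within the runs, CXCR4 had log2 fold changes of 1.69 and 1.58 in Takara (adjusted p = 0.00551 and 0.0513 by the edgeR test within each run) and 1.92 and 0.75 in Lexogen (0.0073 and 0.536). S1PR1 had 0.85 and 1.50 in Takara (0.0762 and 0.0442). TCF7 had -0.73 and -0.52 (0.0203 and 0.11), LEF1 -0.75 and -0.29 (0.0258 and 0.5) and SATB1 -0.45 and -0.64 (0.176 and 0.216) in Takara. In Lexogen S1PR1 had 1.04 and 0.27 (0.0448 and 0.824), with 1 of 7 pairs lower in run 1 and 3 of 5 in run 2. TCF7 had -0.34 and -0.63 (0.696 and 0.432), with 3 of 7 and 5 of 5 pairs lower, LEF1 had -0.40 and -0.71 (0.591 and 0.375) and SATB1 had -0.24 and -0.91 (0.814 and 0.3). The fitted values of these 5 genes had the same sign in both runs of each kit, but the pairs of a run often went both ways. Pairs of LEF1 and of S1PR1 went both ways in each run of each kit. In Lexogen run 1, SATB1 was lower in 4 of 7 pairs and TCF7 in 3 of 7. All pairs went one way for CXCR4 in run 1 and for TCF7 and SATB1 in run 2 of each kit. Animals of the 2 runs are different calves, so that run and animal group cannot be told apart.

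**Figure D3:**
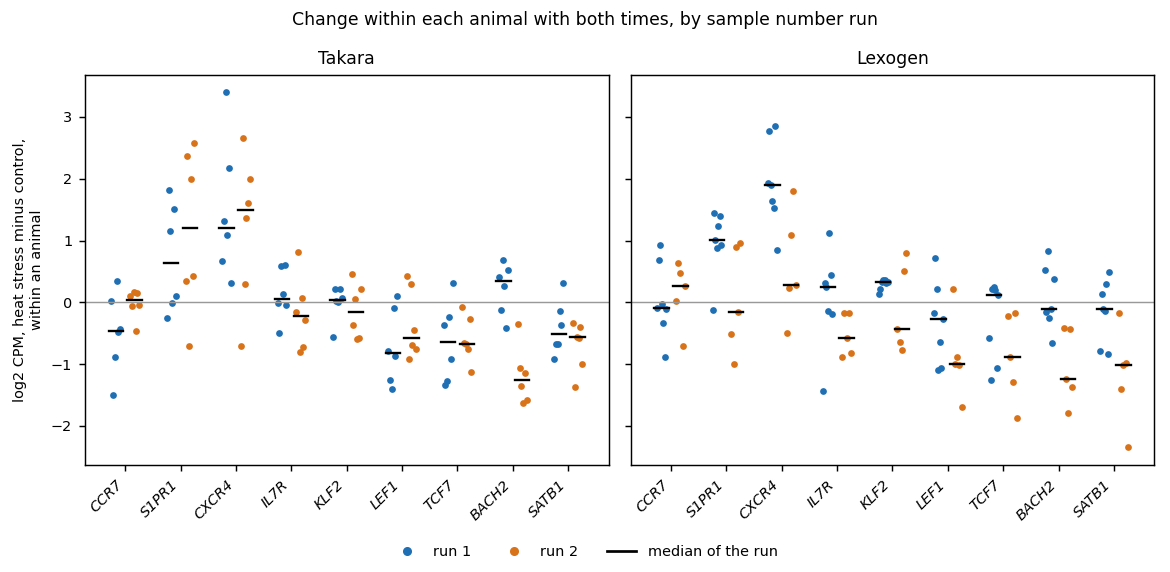
Change within each animal sampled at both times (log2 CPM, heat stress minus control), for each gene and kit, with points for animals, colours for the sample number runs and black bars for the median of a run. The 6 Takara pairs of run 2 all lie below 0 for BACH2, while those of run 1 lie on both sides.

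Markers of cell types moved with these results. The shares of all genes called in each kit, given above, are the background for the marker counts here and in the next paragraph. Of 10 T cell markers (CD3D, CD3E and others of the T cell receptor complex and its signalling), 6 fell in Takara and 0 rose. Their summed level ranged from 1238 to 2396 CPM in control (median 1532) and from 775.1 to 1882 CPM in heat stress (median 1089), and it was lower in 11 of 12 pairs. In Lexogen 0 of the 10 were called, and the medians of the sum were 589.3 and 465.2 CPM. Of 7 neutrophil markers tested in Takara 6 rose, S100A8 and S100A12 among them, and 5 of 6 tested in Lexogen rose. Their summed level had medians of 11370 CPM in control and 41970 CPM in heat stress in Takara (ranges 4207 to 19450 and 3651 to 108100), and of 3551 and 10350 CPM in Lexogen. The part of these shifts in the results on the 9 genes was not tested.

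Of 8 B cell markers, 1 fell in Takara (BLK, log2 fold change -0.98), and 0 were called in Lexogen, but all 8 had values below 0 in each kit. The summed B cell level had medians of 806 and 563.5 CPM in Takara and of 447.1 and 340.4 CPM in Lexogen, and was lower in 7 of 12 and 10 of 12 pairs. Of 6 monocyte markers, 3 rose in Takara and 0 were called in Lexogen, with summed Takara medians of 348.6 and 504.8 CPM. Of 4 platelet and 2 erythroid markers tested, 0 were called in either kit. HBA1 was at 0 in every library compared, whereas HBB, the beta globin gene, had a mean of 1611 CPM in Takara control libraries after the lysis step.

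When the summed counts of the 10 T cell markers were used as library size, which puts each gene on a scale per T cell marker count, CXCR4 and S1PR1 rose in both kits. On this scale they had log2 fold changes of 2.30 and 1.83 in Takara (adjusted p = 0.000253 and 0.000401 by the edgeR test) and 1.98 and 1.22 in Lexogen (0.00153 and 0.0111). Over all genes it called 5455 of 12620 higher in Takara and 1262 of 11108 in Lexogen, where the main scale called 565. TCF7, LEF1 and SATB1 stayed below 0 in Takara, at -0.21, -0.11 and -0.11, and 0 of the 9 genes were called lower (adjusted p = 0.0881, 0.437 and 0.725). The same scaling moved the median of all genes from -0.05 to 0.42 in Takara and from -0.08 to 0.29 in Lexogen, and CCR7, KLF2, IL7R and BACH2 in Takara changed from below to above 0. With library size set to all reads on genes, the median of all genes was -0.27 in Takara. BACH2 was then also called (-0.61, adjusted p = 0.0283 by the edgeR test), and the other 5 calls held. All Takara genes split into 2325 higher and 1321 lower on the main scale, 1303 and 2185 with all reads on genes, and on the T cell marker scale 5455 were higher, 97.9% of the calls. As a ratio to the T cell marker sum within an animal, TCF7 was lower in 11 of 12 Takara pairs, with a median log2 change of -0.21, LEF1 in 8, SATB1 in 6 and CXCR4 in 1. In Lexogen TCF7 was lower on this ratio in 7 of 12 pairs, with a median of -0.14 and a range from -1.25 to 1.16. LEF1 was lower there in 6 pairs, SATB1 in 7 and CXCR4 in 2.

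**Figure D4:**
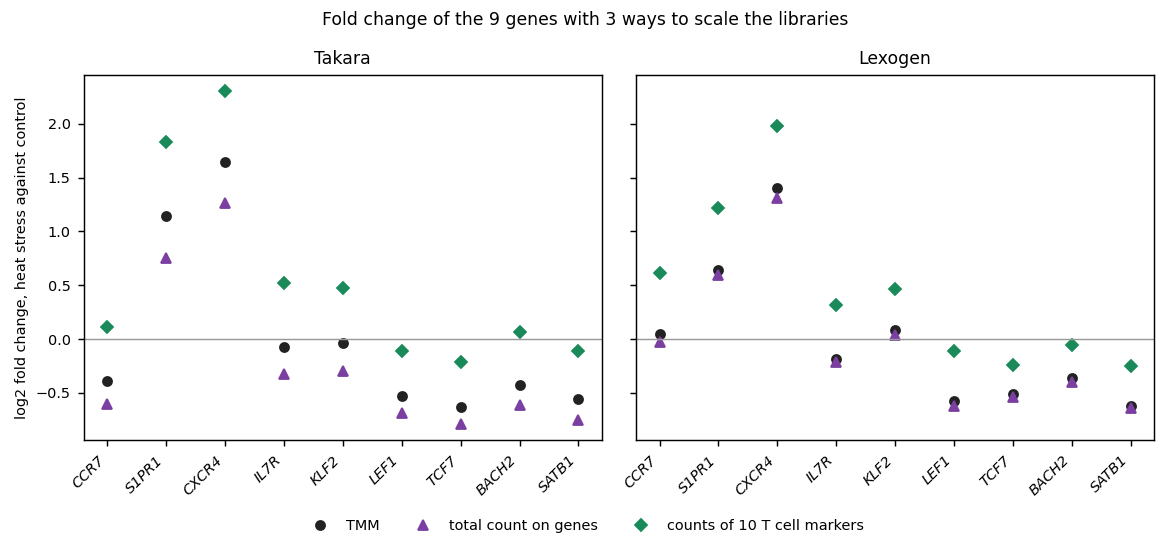
Log2 fold change of each gene in each kit with libraries scaled by TMM (black), by the total count on genes (purple) and by the counts of 10 T cell markers (green). CXCR4 and S1PR1 stay above 0 and LEF1, TCF7 and SATB1 below 0 on all 3 scales, whereas CCR7, KLF2, IL7R and, in Takara, BACH2 do not keep their side of 0 on all scales in at least 1 kit.

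Other genes of these pathways came from 7 lists of 71 genes. For scale, 18.4% of all genes tested were called higher and 10.5% lower in Takara, and 5.09% and 0.459% in Lexogen. The lists here and in the next paragraph are small, and none was tested as a set. Of 10 further homing receptors tested, 3 rose in Takara and 0 fell. Among them were CCR6, a chemokine receptor of memory and B cells (log2 fold change 2.27), and the integrin chain ITGB7 (0.48), and CCR6 rose in Lexogen as well (2.41). The heat stress values of CCR6 spread widely, at 60.9 ± 101.9 CPM in Takara and 45.8 ± 53.5 CPM in Lexogen (mean and SD). Control values were 12.6 ± 3.0 and 8.6 ± 8.1 CPM. In Takara, the heat effect of 3 of the 10 receptors was called as different between the runs. Of 8 genes of the S1P axis, the receptor S1PR4 rose in Takara (1.15) and 0 were called in Lexogen, while CD69, which takes S1PR1 off the cell surface, had 0.44 in Takara and was not called. Of the ligands CCL19, CCL21, CXCL12 and IL7, CXCL12 and IL7 were tested and 0 were called in either kit. Of 10 genes of receptor signalling and desensitization, 6 rose and 0 fell in Takara, among them the arrestin ARRB2 (0.95), the G protein subunit GNAI2 (0.63) and the regulators of G protein signalling RGS14 (1.21) and RGS2 (1.76). In Lexogen 3 of 9 rose.

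Of 9 genes of interleukin 7 receptor signalling, 4 rose and 0 fell in Takara. They were the kinase JAK1 (log2 fold change 0.55), the shared receptor chain IL2RG (0.37) and the feedback inhibitors SOCS1 (0.84) and CISH (0.70), and 0 of 8 were called in Lexogen. Of 15 other regulators of the naive state and of quiescence, 5 rose and 4 fell in Takara, so that this list did not move one way. KLF7 (1.46), KLF3 (0.70) and TSC22D3 (1.08), a gene known to respond to glucocorticoids, were among those that rose, and CD27 (-0.49), a co-stimulatory receptor, was among those that fell. In Lexogen 2 of 14 rose and 0 fell, and TSC22D3 was one of them (0.84). Of 10 regulators of effector cells, PRDM1 (1.71), the gene of the repressor BLIMP1, and ID2 (0.57) rose and GATA3 (-0.90), a T helper cell factor, fell in Takara, and PRDM1 alone rose in Lexogen (1.05).

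With animal 20 left out, 24 RNA samples were sequenced with both kits, 12 of each time. In these the time effect was compared between the kits in 1 model. None of the 9 genes differed (edgeR's quasi-likelihood test of the kit by time interaction, adjusted p = 1 for each), nor did any of the 13354 genes tested, with 0% called and 526 genes at an unadjusted p under 0.05. The intervals of the difference, Takara minus Lexogen, were -0.66 to 0.17 for CXCR4, -0.30 to 0.55 for S1PR1, -0.29 to 0.24 for TCF7, -0.42 to 0.44 for LEF1 and -0.36 to 0.85 for SATB1 on the log2 scale. For CCR7 the difference was -0.44 (-0.88 to 0.00440). Calls in Takara alone are therefore not shown to differ between the kits.

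The level that a kit gave to a gene did differ. In the same RNA samples, 8 of the 9 genes differed between the kits, where 72.3% of all genes tested did (edgeR's quasi-likelihood test of kit, with the RNA sample as a block). Takara gave LEF1 a mean of 261.5 CPM and Lexogen 79.8 CPM, a fitted fold of 3.31 (adjusted p = 5.31e-15 by the edgeR test), and CCR7 was 2.52-fold higher in Takara. BACH2 had 48.0 CPM in Takara and 200.7 CPM in Lexogen, and was lower in Takara in 24 of 24 RNA samples, as were TCF7 and KLF2. S1PR1, IL7R and SATB1 were also lower in Takara, at folds of 0.75, 0.52 and 0.40. CXCR4, at 127.2 and 118.1 CPM, was not called (fold 1.11, adjusted p = 0.186 by the edgeR test).

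Among themselves the 9 genes were related in both directions across libraries once each was centred on its time. Over the 36 pairs of genes, the median Pearson r was 0.098 in Takara and 0.216 in Lexogen (n = 26 libraries in each, most animals giving 2), from -0.77 to 0.77 and from -0.33 to 0.78. LEF1 and TCF7 had the highest r in Takara (0.77, and 0.41 in Lexogen), and TCF7 and SATB1 in Lexogen (0.78, and 0.22 in Takara). CXCR4 had the lowest r in Takara, with LEF1 (-0.77, and -0.05 in Lexogen) and TCF7 (-0.72, and -0.33 in Lexogen), while CXCR4 and S1PR1 had 0.64 and CCR7 and LEF1 0.67 in Takara (0.20 and 0.43 in Lexogen). Of 10834 genes tested in both kits, those with a pattern most like a member in Takara were FYN, LOC100336282 and CD2 for LEF1 (r = 0.94, 0.91 and 0.90, and 0.19, -0.01 and 0.09 in Lexogen). For CXCR4 they were LOC132344326, TPMT and FBXO38 (0.92 each, and 0.68, 0.57 and 0.58 in Lexogen). For S1PR1, CDIPT, C7H5orf15 and SIRT7 had 0.91 each in Takara, of which C7H5orf15 had 0.62 in Lexogen and the other two 0.03 and 0.01. BACH2 was most like CLOCK, TARDBP and CDK6 (0.82, 0.81 and 0.80, and 0.40, 0.21 and 0.45 in Lexogen). For TCF7 they were LOC100300510, DYRK2 and LCK (0.85, 0.83 and 0.82, and -0.04, 0.46 and -0.07 in Lexogen), and for SATB1 WRNIP1, LOC101908237 and EXOSC6 (0.87, 0.86 and 0.86, and 0.47, 0.18 and -0.32). CCR7 was most like LOC100336282, CALHM2 and TRIP4 (0.78, 0.75 and 0.73, and 0.01, 0.06 and -0.63 in Lexogen). KLF2 was most like RNPEPL1, INPP5A and STK24 (0.79, 0.79 and 0.78, and -0.21, -0.27 and 0.03), and IL7R was most like SLC25A36, LOC100848405 and SCML4 (0.743, 0.739 and 0.735, and 0.21, 0.34 and 0.12). The genes were picked by their r in Takara, a choice that favours a lower r in Lexogen. How much of the drop comes from this choice was not tested. Libraries share depth, cell makeup and sample number run, and these correlations are descriptions of 1 set of libraries. Values were centred on the time and not on the run, so that a pattern shared by a run, as BACH2 had in Takara, can enter r.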

How the data were processed

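The authors deposited raw read counts per gene, not normalized, made with STAR on ARS-UCD2.0 from forward reads that Trimmomatic had trimmed. The unstranded column was used. The submitters' processing notes name Trimmomatic 0.39, STAR 2.7.10b, FastQC 0.11.9 and MultiQC 1.14. The 4 totals above the genes were left out, and 0 columns came from other series. Gene positions were taken from RefSeq's ARS-UCD2.0 table. Counts carry no molecular identifiers, so reads are not independent molecules. Samples were grouped by the kit and time in their labels, and replicates are separate animals.

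Each kit was fitted alone with edgeR 4.0.16 in R 4.3.3 (filterByExpr, TMM, quasi-likelihood test of time, Benjamini-Hochberg adjustment over all genes tested, threshold 0.05), after a test of the scripts on simulated data. CPM were computed with TMM-scaled library sizes. Pairs come from the animal number in the labels, which marks the same calf at both times. Deviations from the time means correlated above 0.1 in 11 of 12 pairs in Takara (median r = 0.23) and in 1 of 12 in Lexogen (median 0.034). Lexogen pair counts and ratios therefore rest on the labels, as the Lexogen counts showed little likeness within an animal. Alternatives were other scalings, no filter, DESeq2 1.42.0, sense strand counts, the animal as a block, the runs and each animal left out. The members and lists were chosen with earlier results of these data known. All 9 members are named, and of each pathway list up to 4 genes with the smallest p in Takara, while marker genes named singly were chosen after their values were seen. For likeness, the 3 genes with the highest r in Takara are named. The values of 1 listed gene are not reported here.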

Additional observations from a re-analysis of the deposited data

Results flagged for a closer look

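The difference of the BACH2 fold change between the sample number runs in Takara, -1.39 on the log2 scale (run 2 minus run 1), stood out because the interaction of run and time was itself tested and called (adjusted p = 0.00384 by edgeR's quasi-likelihood test). The runs hold different calves, and their part in the difference cannot be told apart.

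Animal 20 entered no comparison. Its CPM are on a scale refitted with its library included, on which the other libraries' values differ slightly from those given above, and on this scale some of its levels lay above every control library of the kit. In Takara these were S1PR1 at 632.4 CPM (control up to 186.6), KLF2 at 810.3 CPM (control up to 595.6) and CXCR4 at 423.1 CPM (control up to 95.3). In Lexogen it was CXCR4 at 184.1 CPM (control up to 126.2). S1PR1 and KLF2 of this Takara library also lay above every heat stress library (up to 573.6 and 578.2 CPM). Its CCR7 (89.6 CPM) and BACH2 (18.05 CPM) lay below every Takara heat stress library (from 97.32 and 24.94 CPM). In Lexogen, CCR7, LEF1, TCF7, BACH2 and SATB1 of this animal lay below every heat stress library. Its LEF1, TCF7, CCR7 and BACH2 lay below every control library in both kits. In Lexogen alone, its IL7R (133.8 CPM, control from 139.9) and SATB1 (16.84 CPM, control from 52.85) did so too. The share of all genes for which this animal lay outside the control range was not computed. Nothing particular to the genes named here is therefore read from these levels.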

How the results depend on the processing

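Main counts of the 9 genes were 2 higher and 3 lower in Takara and 1 higher and 0 lower in Lexogen. With the animal as a replicate block (paired by calf) they were again 2, 3, 1 and 0, and no call changed, with CXCR4 at 1.35 and 1.36 (log2) in the kits. Higher counts in Takara were 1 in run 1 alone, 1 in run 2 alone and 0 with animal 20 as control. Over all Takara genes, the main fit called 2325 higher and 1321 lower. Run 1 alone called 1879 and 751 of 12791 genes, and run 2 alone 608 and 323 of 12661. Lower counts in Takara were 0 with T cell marker counts as library size, 1 in run 2 alone and 0 with animal 20 as control, and 1 to 4 with each animal left out (1 without animal 36 or 40, 4 without animal 41). With T cell marker counts, 97.9% of the calls over all Takara genes were higher. Higher counts in Lexogen were 2 with T cell marker counts, 2 without the low-count filter, 2 in run 1 alone, 0 in run 2 alone and 0 with animal 20 as control, and 1 to 2 with each animal left out (2 without animal 3 or 14). Lower counts in Lexogen were 1 without the filter and 0 to 1 with each animal left out (1 without animal 3 or 18). With DESeq2 size factors, 9 of the 9 genes differed in level between the kits, against 8. The cause of these moves was not tested. The single runs and the fits with an animal left out hold fewer libraries, and calls were both lost and gained in them. CXCR4 had a Takara adjusted p of 0.0556 and a Lexogen adjusted p of 0.126 with animal 20 as control (edgeR's quasi-likelihood test). Over all genes, calls in Lexogen numbered 565 higher and 51 lower, 0 of 11459 genes in run 2 alone (edgeR, 1275 at an unadjusted p under 0.05), 2 of 11222 with animal 20 as control, 1701 and 1572 without the filter, and 46 and 17 with the replicate block. DESeq2 on all expressed genes called 816 and 190 there. Also in Lexogen, T cell marker counts gave 1262 higher and 5 lower, and run 1 alone 379 and 23 of 11532 genes. Lexogen calls were 658 and 57 without animal 3, 683 and 64 without animal 14, and 354 and 35 without animal 18. The blocked run by time fits, the sense strand counts and the left-out animals for BACH2 were chosen after seeing the data, and gave differences of -1.42 (Takara) and -1.07 (Lexogen) with the block. At this depth and spread, the Lexogen 95% interval of SATB1 ran from -1.12 to -0.12 without a call.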
